A study of Mus musculus with 6 samples.

Results

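Dopamine-synthesizing neurons were taken from a single-nucleus RNA-seq study of mouse hypothalamus as the nuclei with at least 2 UMIs (unique molecular identifiers, each standing for 1 captured RNA molecule) of Th, at least 1 UMI summed over Ddc, Slc6a3 and Slc18a2, and 0 UMIs of Hdc, the enzyme that makes histamine. The rule chose 88 of 34541 nuclei (0.255%), of which 45 were in the DIO pool, 11 in the OB pool and 32 in the chow pool. The nuclei were thus chosen by their measured UMIs of these 5 genes, whose levels below are descriptions and carry no test.

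The study sorted nuclei for NeuN, a protein of neuronal nuclei, and captured them with 10x Genomics 3' chemistry in 3 pools. The DIO pool came from mice made obese by diet (labelled hfd), the OB pool from ob/ob mice on chow, which make no functional leptin, and the chow pool from mice on chow for which the labels name no mutation. In each pool 1 hashtag marked the rapamycin-treated mice and 1 hashtag the vehicle-treated mice, rapamycin being a drug that inhibits the growth-controlling kinase complex mTORC1. The labels give neither a dose, a duration, an age, a sex nor the number of mice behind a hashtag, so the 6 hashtag samples (3 pools with 2 treatments each) were the units of every comparison, and there were no replicates within a pool. A p-value here rests on the spread between these hashtag samples, which may be technical. The tests of genes share their estimate of this spread across genes. A very small p-value is therefore not a measure of 1 gene's own spread over the 6 samples.

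Dopamine is made from tyrosine. Th (tyrosine hydroxylase) forms L-DOPA in the rate-limiting step, with the cofactor tetrahydrobiopterin made by Gch1, and Ddc (aromatic L-amino acid decarboxylase) turns L-DOPA into dopamine. Slc18a2, the vesicular monoamine transporter VMAT2, loads dopamine into vesicles, and Slc6a3, the dopamine transporter DAT, takes it back up. In the hypothalamus the best known dopamine neurons are those of the arcuate nucleus, which project to the median eminence, carry the prolactin receptor and restrain prolactin release. Others lie in the zona incerta and the periventricular region, and many hypothalamic dopamine neurons also make GABA. Midbrain dopamine neurons, which arise from the floor plate under the factors Foxa1, Foxa2, Lmx1a, Lmx1b, En1, En2 and Pitx3, carry much of the brain's DAT.

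The RefSeq sequences around the starts of the genes that define these nuclei are shown because these genes chose the nuclei. Each line holds the 250 bases before and the 50 bases after the annotated start on mouse build GRCm38.p6, written in the gene's own direction. Capitals mark the motif TGACGTCA, the full cAMP response element, which reads the same on both strands.
Th, chr7:142899946-142900245, minus strand: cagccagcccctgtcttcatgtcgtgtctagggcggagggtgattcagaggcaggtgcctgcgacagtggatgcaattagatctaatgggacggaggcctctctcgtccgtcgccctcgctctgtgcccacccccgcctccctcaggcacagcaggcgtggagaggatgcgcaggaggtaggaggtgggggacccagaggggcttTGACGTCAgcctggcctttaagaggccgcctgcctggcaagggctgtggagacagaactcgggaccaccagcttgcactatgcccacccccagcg
Slc18a2, chr19:59260628-59260927, plus strand: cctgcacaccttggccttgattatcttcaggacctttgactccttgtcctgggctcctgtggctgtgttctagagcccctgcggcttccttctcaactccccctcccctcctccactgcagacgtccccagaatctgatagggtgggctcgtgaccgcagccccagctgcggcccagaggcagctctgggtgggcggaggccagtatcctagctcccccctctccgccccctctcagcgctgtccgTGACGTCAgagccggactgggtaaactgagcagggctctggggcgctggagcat
Slc6a3, chr13:73536497-73536796, plus strand: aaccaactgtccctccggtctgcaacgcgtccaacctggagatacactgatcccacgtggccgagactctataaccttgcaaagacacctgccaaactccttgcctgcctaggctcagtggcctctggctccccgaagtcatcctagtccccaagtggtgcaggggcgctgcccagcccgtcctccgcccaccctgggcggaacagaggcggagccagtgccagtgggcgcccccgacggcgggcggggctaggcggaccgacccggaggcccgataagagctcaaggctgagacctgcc
The element begins 45 bases before the start of Th and 4 bases before the start of Slc18a2, and its letters are not in the Slc6a3 window. Over all 32851 promoter windows of this length in the table, 588 (1.79%) hold it. The motif AAAGGTCA, the NBRE bound by receptors of the Nr4a family, was searched on both strands and cannot match at the same position as the first motif. It was found in 495 windows (1.51%), among them 1 of the 2 windows listed for Ddc (chr11:11898095-11898394, minus strand), on the opposite strand and beginning 73 bases before the start. Th, Slc18a2 and Slc6a3 hold no NBRE in these windows. A match is a description of the letters and not a measured binding site.

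The DIO, OB and chow pools held 11405, 12283 and 10853 nuclei with a median of 5572, 2805 and 5826 UMIs. Between 31 and 38 barcodes were shared by each pair of pools (0.286% to 0.35% of the smaller one). No hashtag call was made for 30.4% of OB barcodes, whereas all 11 dopamine nuclei of that pool had a single hashtag, while 6 of the 88 dopamine nuclei (3 in DIO and 3 in chow) were called as hashtag doublets and were left out of all sums by hashtag. The 88 nuclei were deeper than the rest, with a median of 8722 UMIs and a range of 2672 to 28252, against a median of 4973 in 30867 other neurons. Of the 88, 24 were among the deepest 5% of their pool.

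Most of the 88 nuclei stood near the lower limit of the rule. For Th, 51 had exactly 2 UMIs, 18 had 3 and 19 had at least 4, with 7 as the highest number. Ddc was seen in 72 nuclei, Slc18a2 in 72 and Slc6a3 in 30, and 27 nuclei carried all 4 genes. At least 2 of the 3 partner genes were seen in 59 nuclei. Just inside the limit, 14 nuclei had 2 Th UMIs and 1 partner UMI. Just outside it were 51 nuclei with at least 2 Th UMIs and no partner, 174 with 1 Th UMI and a partner, and 2 that the Hdc condition removed. Of the 19 nuclei with 1 partner UMI, 8 rested on Ddc, 10 on Slc18a2 and 1 on Slc6a3.

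Free RNA in a droplet can give single UMIs to nuclei that do not express a gene, so the same genes were counted in 440 nuclei with at least 10 UMIs of oligodendrocyte markers, a cell type that should lack them. Th was seen in 1 of these (0.227%), Slc18a2 in 6 (1.36%) and Slc6a3 in 0 of 440, which allows a share of up to 0.682%, at a median depth of 1780 UMIs. Ddc was seen in 9.32% of them, close to its 11.1% in other neurons at a median of 4970 UMIs. In CPM (UMIs scaled to a common sum), Ddc stood at 54.5 in the 440 nuclei and 29.3 in other neurons. Slc18a2 (6.17 and 30.3 CPM) and Th (1.03 and 3.84 CPM) were lower in the 440 nuclei. A single UMI of Ddc thus does not by itself set a nucleus apart. Whether the Ddc UMIs of the 440 nuclei are background or expression was not tested. In other neurons Th was seen in 1.91%, Slc18a2 in 10.5% and Slc6a3 in 0.447%. Across neurons of 6000 to 12000 UMIs, at least 1 partner UMI was present in 26.2% of those with 0 Th UMIs, 39% with 1, 55.6% with 2 and 77.8% with 3 or more. For Slc6a3 alone the shares were 0.521%, 6%, 15.6% and 44.4%. Neurons with at least 2 Th UMIs and a partner are the chosen nuclei themselves, apart from any that the Hdc condition removed. These shares of rule genes are therefore descriptions and not support for the label.

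**Figure D1:**
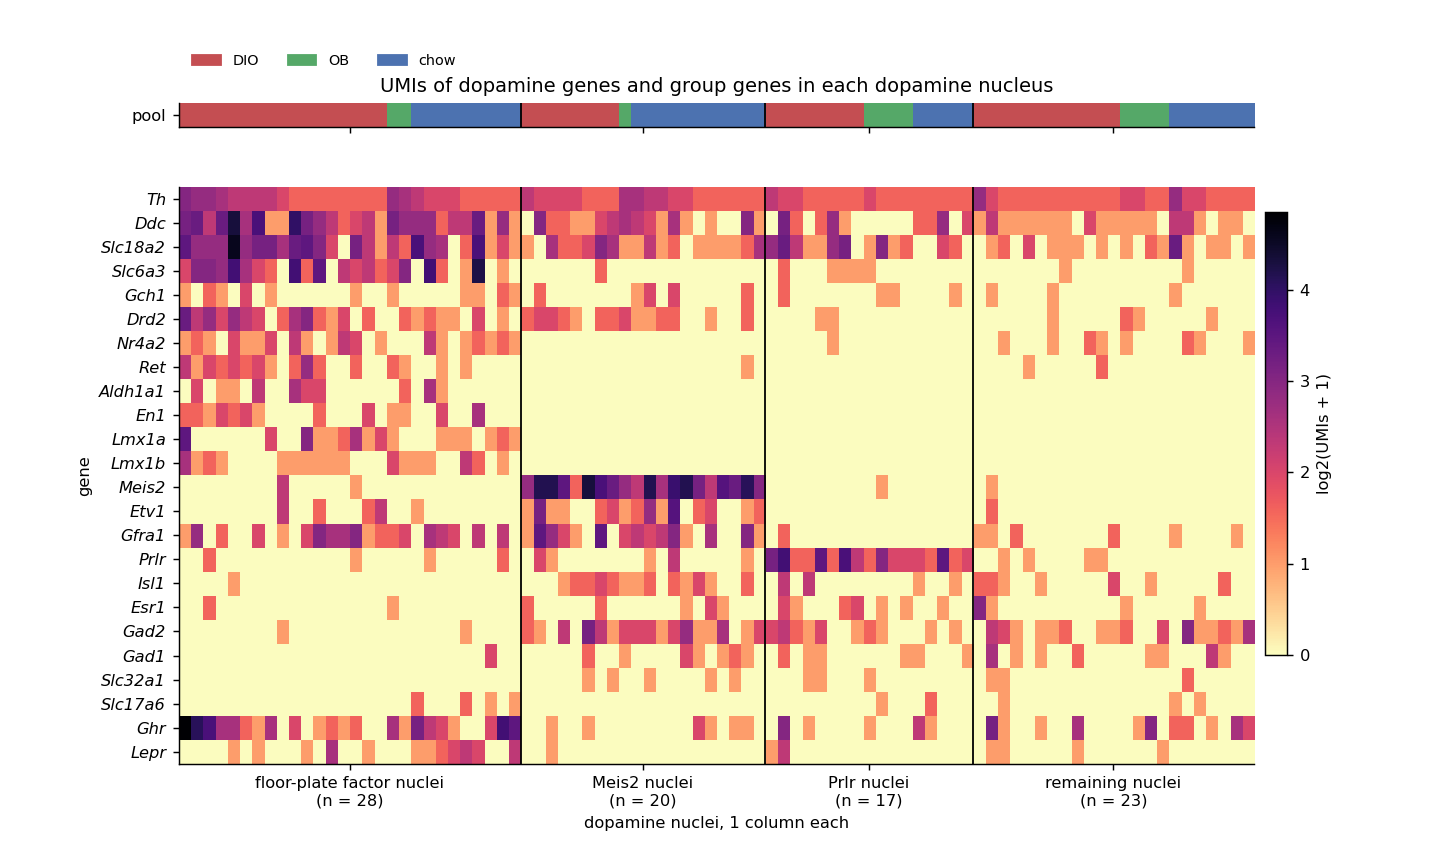
UMIs per nucleus (colour, log2 of UMIs + 1) of 24 genes (rows) in the 88 dopamine nuclei (columns), ordered by group of nuclei and by pool. Slc6a3 stands out in the 28 nuclei with floor-plate factors, Meis2 in the 20 Meis2 nuclei and Prlr in the 17 Prlr nuclei, while Th has 2 UMIs or more in every nucleus by the rule.

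Genes that the rule did not use fitted the label. Gch1 stood at 40.9 CPM (UMIs scaled to a sum of 1000000) in the dopamine nuclei and 2.46 CPM in other neurons, and Drd2, the dopamine autoreceptor, at 123 and 11.2 CPM. All 5 noradrenergic markers and all 4 serotonin markers were at 0 UMIs in the 88 nuclei, so noradrenergic and serotonin neurons were not detected among them. The 5 histamine markers summed to 373 CPM in the dopamine nuclei and 85.1 CPM in other neurons, with 4 of the 5 seen. That list holds Slc18a2, which the rule used, and Hdc, its defining enzyme, was at 0 by the rule. Summed astrocyte markers were at 18 CPM in the dopamine nuclei and 48.7 CPM in other neurons, oligodendrocyte markers at 63.7 and 98.1 CPM, and oligodendrocyte precursor markers at 34.9 and 18.2 CPM. Pituitary markers summed to 20.4 CPM in the dopamine nuclei and 29.3 CPM in other neurons. Of their 17 UMIs in the 88 nuclei, 11 were of Cga, the shared alpha subunit of pituitary glycoprotein hormones, in 1 DIO vehicle nucleus of 4948 UMIs. What that nucleus adds to the values below was not tested. Microglial markers were at 135 and 140 CPM, with UMIs of 2 of 6 genes in the dopamine nuclei. The summed midbrain dopamine list stood at 439 CPM in the dopamine nuclei and 77.2 CPM in other neurons.

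The 88 nuclei were not of 1 kind. They were sorted into groups after their values had been seen, so the groups are descriptions with no test. First came 28 nuclei with at least 1 UMI of En1, En2, Foxa1, Foxa2, Lmx1a, Lmx1b or Pitx3, called floor-plate factor nuclei here. Of the others, 20 had at least 2 UMIs of Meis2, a homeobox factor of forebrain interneurons, and are called Meis2 nuclei. Next, 17 had at least 2 UMIs of Prlr, the prolactin receptor, and are called Prlr nuclei. The remaining 23 met none of these conditions. Neither Meis2 nor Prlr is confined to dopamine nuclei. At least 1 UMI of Meis2 was seen in 6.03% of other neurons, and of Prlr in 26.2%. In the 440 nuclei with oligodendrocyte markers, Meis2 was seen in 7.5% and Prlr in 0.455%. Among the floor-plate factors, Lmx1b was seen in 17 nuclei, Lmx1a in 16, Foxa2 in 4, Pitx3 in 4 and Foxa1 in 1. En1 was seen in 13 of the 88 nuclei and in 28 of 30867 other neurons (0.0907%). Lmx1a was seen in 5.54% and Lmx1b in 2.7% of other neurons, and any of the 7 factors in 6.96%, or in 9.98% of those with 6000 to 12000 UMIs. In the 440 nuclei with oligodendrocyte markers, any of the 7 was seen in 1.59%, at a median of 1780 UMIs. A single UMI of these factors thus does not by itself set a nucleus apart from other neurons. Whether such UMIs are background or expression was not tested. Of the 28 nuclei, 17 carried a factor other than Lmx1a and Lmx1b, 18 had at least 3 UMIs of the 7 factors and 5 had 1.

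Th, which the rule sets at 2 UMIs or more in every nucleus, was at 295 CPM in floor-plate factor nuclei, 306 in Meis2 nuclei, 270 in Prlr nuclei and 323 in the rest. Nothing is read from these Th levels, since 51 of the 88 nuclei had exactly 2 UMIs. Slc6a3 was at 409, 10.6, 41.5 and 10.9 CPM in the same order, so the transporter was carried mainly by the floor-plate factor nuclei. Ddc was at 520, 253, 221 and 164 CPM, and Slc18a2 at 533, 237, 353 and 148 CPM. All 16 nuclei with at least 3 Slc6a3 UMIs were floor-plate factor nuclei, as were 22 of all 30 with any. The highest single value, 18 UMIs, was in a nucleus of the chow rapamycin sample.

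Floor-plate factor nuclei also carried the genes known from midbrain dopamine neurons. Aldh1a1, an aldehyde dehydrogenase of the ventral midbrain, was at 88.8 CPM in them and had 0 UMIs in all 3 other groups, and so had Slc10a4, a vesicle protein of monoamine neurons, at 41.2 CPM. Nr4a2 (Nurr1), a factor that maintains midbrain dopamine neurons, was at 121 CPM, against 0 in Meis2 nuclei, 6.92 in Prlr nuclei and 54.7 in the rest. Ret, the receptor for GDNF, was at 114, 5.28, 0 and 16.4 CPM in that order. Ghr, the growth hormone receptor, was at 416, 42.2, 96.8 and 197 CPM, and Lepr, the leptin receptor, at 85.7, 5.28, 34.6 and 21.9 CPM. At least 1 UMI of the GABA genes Gad1, Gad2 or Slc32a1 was seen in 3 of 28 floor-plate factor nuclei, but in 18 of 20 Meis2, 13 of 17 Prlr and 18 of 23 remaining nuclei. The glutamate transporter Slc17a6 was seen in 4, 0, 2 and 3 nuclei of these groups.

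Against the other dopamine nuclei, 4.62% of 3222 genes stood at least 2-fold higher in floor-plate factor nuclei and 8.57% at least 2-fold lower. The highest were Bnc2, a zinc finger protein, with 130 UMIs in floor-plate factor nuclei and 1 in the other 60 (log2 ratio 7.73, 95% interval for counting error 5.23 to 13.05), Tll1 (94 and 3 UMIs) and Ntn1 (92 and 4 UMIs), the axon guidance cue netrin 1. Ebf1 (77 and 4 UMIs) followed. The tissue label of all pools is hypothalamus. Whether these nuclei came from the posterior hypothalamus or from adjoining midbrain in the dissected tissue was not tested.

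Gad2, an enzyme that makes GABA, was at its highest in the Meis2 nuclei, at 264 CPM, against 6.35 in floor-plate factor nuclei, 131 in Prlr nuclei and 197 in the rest. Etv1, an ETS factor also known from dopamine neurons of the olfactory bulb, was at 237 CPM, against 41.2, 0 and 10.9. Drd2 was at 142 CPM in Meis2 nuclei and 216 in floor-plate factor nuclei, but 13.8 in Prlr nuclei and 27.4 in the rest. It was seen in 14 of 20 Meis2 and 21 of 28 floor-plate factor nuclei, but in 2 of 17 Prlr and 4 of 23 remaining nuclei. Isl1, a LIM homeobox factor of many arcuate neurons, was at 121 CPM in Meis2 nuclei, 3.17 in floor-plate factor nuclei, 69.2 in Prlr nuclei and 65.6 in the rest. Of 3222 genes, 3.32% were at least 2-fold higher in Meis2 nuclei than in the other dopamine nuclei and 5.77% at least 2-fold lower. Beside Meis2 itself, which chose them, high ratios were those of the serotonin receptor gene Htr1f (63 and 17 UMIs, log2 ratio 3.65, 2.86 to 4.52) and Hs3st4, a heparan sulfate sulfotransferase gene (265 and 116 UMIs, log2 ratio 2.95, 2.63 to 3.28).

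The Prlr nuclei carried Prlr at 609 CPM by choice. Their estrogen receptor gene Esr1 stood at 83 CPM, against 9.52 in floor-plate factor nuclei, 47.5 in Meis2 nuclei and 54.7 in the rest. Of 3222 genes, 4.69% were at least 2-fold higher in them than in the other dopamine nuclei and 5.52% at least 2-fold lower. Sntg2, a syntrophin, was highest after Prlr, with 76 and 26 UMIs (log2 ratio 3.80, 3.14 to 4.50), followed by the vesicle GTPase gene Rab3b (36 and 29 UMIs, log2 ratio 2.56) and the phosphodiesterase gene Pde7b (65 and 60 UMIs, log2 ratio 2.37). In the remaining 23 nuclei 2.48% of genes were at least 2-fold higher and 4.62% at least 2-fold lower.

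The dopamine nuclei were then set against the other neurons of the same 6 hashtag samples, with edgeR's quasi-likelihood test on summed counts and p-values adjusted by Benjamini-Hochberg over all genes. Gch1, Drd2, Aldh1a1 and other genes of dopamine handling rose, as did the factors Nr4a2, Etv1 and Meis2, whereas the splicing regulator Rbfox1 and the glutamate transporter Slc17a6 fell. Of 12705 genes tested, 183 were higher in dopamine nuclei (1.44%) and 212 lower (1.67%) at an adjusted p of at most 0.05. The median log2 fold change of all tested genes was -0.14. Without the DIO pool the numbers were 45 higher and 52 lower, and without the chow pool 107 were lower.

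Of the 23 genes of dopamine handling and cofactor supply, 19 were tested, 7 rose and none fell, beside 1.44% and 1.67% of all genes, with a median log2 fold change of 0.46. Gch1, which is low in other neurons, passed the filter on low counts only through its dopamine sums. The count of rises is thus partly set by the filter and is not read as support for the label. Gch1 was at 29.3 and 37.6 CPM in dopamine nuclei of DIO rapamycin and DIO vehicle, 36.8 and 59.6 in OB rapamycin and vehicle, and 55.2 and 63.0 in chow rapamycin and vehicle, against 2.01 to 2.77 CPM in other neurons. It was higher in all 6 samples without overlap (log2 fold change 4.08, adjusted p = 1.54e-23). Drd2 was at 117 and 222 CPM in DIO rapamycin and vehicle, 91.9 and 179 in OB, and 82.8 and 55.1 in chow, against 7.77 to 20.8 CPM in other neurons. It too was higher in all 6 samples (log2 fold change 3.38, SE 0.26, adjusted p = 6.93e-35). Aldh1a1 rose by 5.77 and Ret by 3.08 on the log2 scale. The GDNF coreceptor gene Gfra1 rose by 1.80 and Maoa, which breaks down monoamines, by 1.47. Ret, Gfra1 and Maoa were each higher in all 6 samples. Without the DIO pool Ret (2.05) and Maoa (1.05) did not pass the test.

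Of the 21 lineage factors tested, 4 rose and 3 fell, beside 1.44% and 1.67% of all genes. Those that rose were Nr4a2 (2.95), Etv1 (2.30), Meis2 (2.29) and Foxp2 (0.67). Foxp2 did not pass without the DIO pool (0.62) or without the chow pool (0.80). Sim1, a factor of paraventricular neurons, fell by 1.09 on the log2 scale, though its 23 UMIs left it above other neurons in OB rapamycin and chow rapamycin, and without the DIO pool it stood at -0.17 and was not called. Nkx2-1 and Zic1 also fell. With 0 UMIs in the dopamine sums, Nkx2-1 was at least 3.27-fold lower and Zic1 at least 2.25-fold lower, against a floor of 3 counts over the 6 dopamine sums. The median of the list was 0.67, against -0.14 for all genes. Meis2 was at 410 and 154 CPM in dopamine nuclei of DIO rapamycin and vehicle, 18.4 and 358 in OB, and 221 and 496 in chow, against 35.8 to 73.4 CPM in other neurons. It was above other neurons in 5 samples and below them in OB rapamycin. Of the 11 genes of the midbrain dopamine list 5 were tested and all 5 rose, beside 1.44% of all genes, with a median of 2.40. Among them was Sox6 (2.12), a factor of the substantia nigra, which was higher in all 6 samples. Both lists were chosen with earlier results of these data known, and Aldh1a1 passed the filter on low counts mainly through its dopamine sums. The counts of both lists are therefore descriptions and not support for the label.

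Among the genes with the largest changes were Bnc2 (4.98), the potassium channel subunit Kcns3 (3.53), Tll1 (3.42), Ntn1 (3.18), Lix1 (2.50), the ubiquitin ligase gene Rnf220 (2.46), the cation channel Trpc6 (2.42) and Rreb1 (2.07). Lix1 stood at 1.33 and was not called without the DIO pool. These log2 fold changes were not shared by all the nuclei. Without the 28 floor-plate factor nuclei 71 genes were higher, and 44 of the 183 were called in both fits while 63 turned sign. Bnc2 then stood at -1.08, Tll1 at -0.70, Ntn1 at -1.43, Lix1 at -0.51, Rreb1 at -0.61 and Foxp2 at -0.34. Drd2 (2.63), Meis2 (2.85), Rnf220 (2.75), Etv1 (2.57), Kcns3 (2.0), Trpc6 (1.83), Maoa (1.46), Gfra1 (1.49) and Sox6 (1.34) kept their call, whereas Nr4a2 (1.39) and Ret (0.65) did not.

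**Figure D2:**
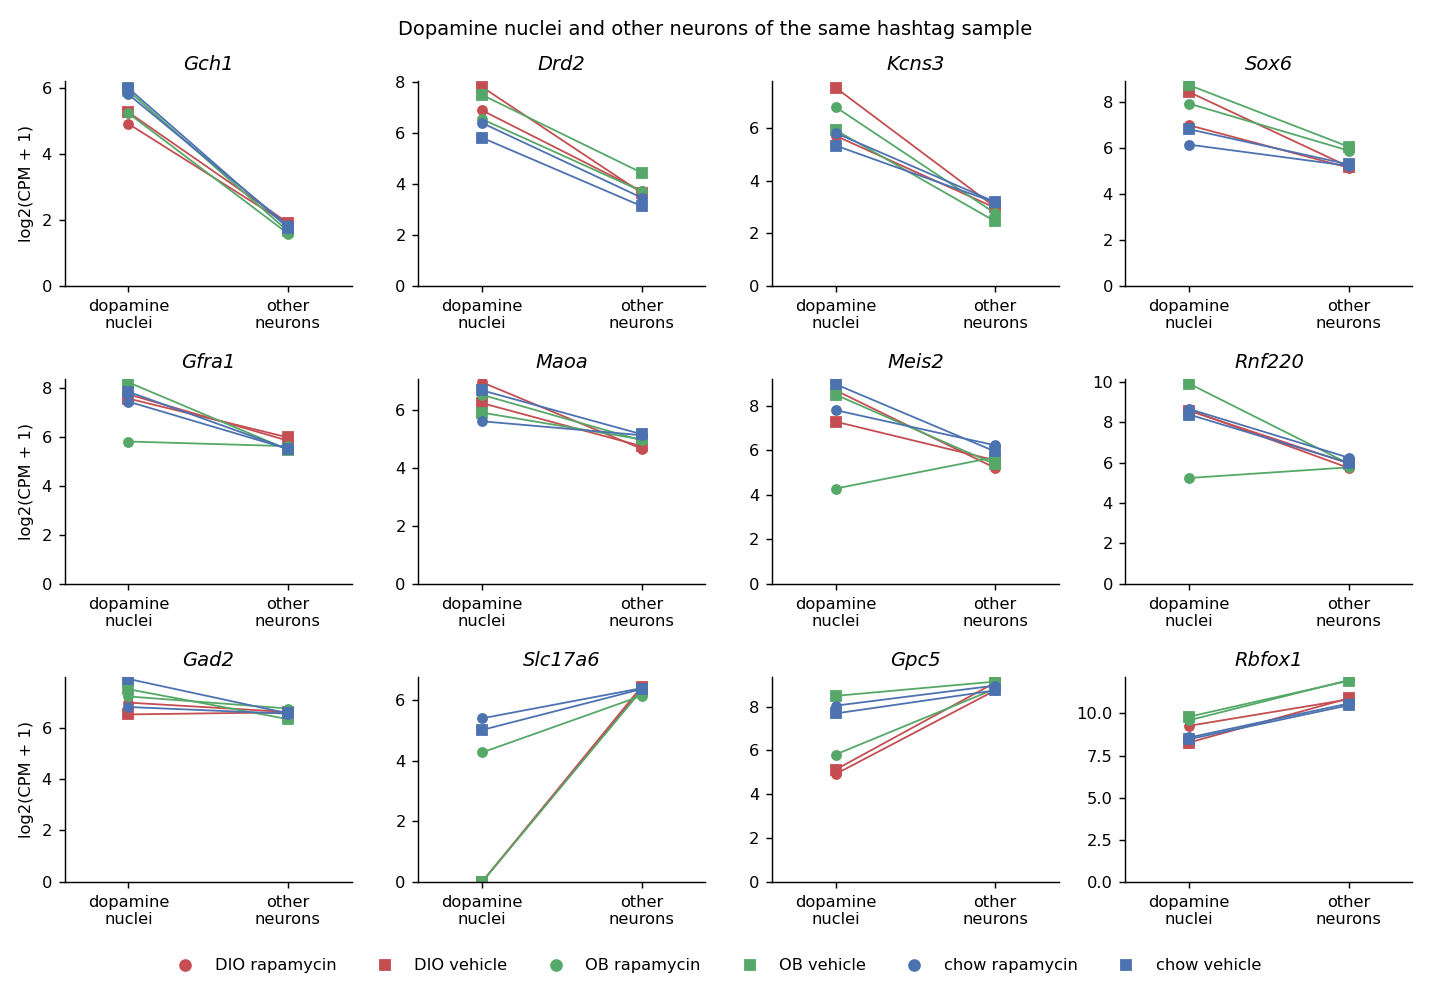
Levels of 12 genes on a log2(CPM + 1) axis in summed dopamine nuclei (left of each pair) and summed other neurons (right), 1 point per hashtag sample (6 samples), with lines joining the sums of a sample. Gch1, Drd2, Kcns3, Sox6, Gfra1 and Maoa were higher in dopamine nuclei in all 6 samples, and Rbfox1 was lower in all 6.

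Among transmitter genes, Slc17a6, the vesicular glutamate transporter VGLUT2 of most excitatory hypothalamic neurons, was at 0 CPM in both DIO samples, 18.4 in OB rapamycin, 0 in OB vehicle, and 41.4 and 31.5 in chow rapamycin and vehicle, against 70.1 to 86.5 CPM in other neurons. It was below other neurons in all 6 samples (log2 fold change -2.51), and was not called without the DIO pool (-1.47). Gad2 (0.45) and Gad1 (-0.64) did not pass the test with all nuclei. Without the floor-plate factor nuclei, Gad2 was called higher (1.01). Of 16 neuropeptide genes tested, 1 fell and none rose, a small count that is not read as a result about the list beside the 1.67% of all genes that fell. It was Hcrt, the orexin precursor, which had 0 UMIs and was at least 3.57-fold lower. Gal, a peptide known from arcuate dopamine neurons, had 4 UMIs in the 88 nuclei, 2 of them in a hashtag doublet, and did not pass the test (log2 fold change -0.47).

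Of 30 hormone and metabolic receptor genes tested, 1 rose and 4 fell, beside 1.44% and 1.67% of all genes, with a median of -0.18. The single gene that rose is near the share of all genes. Tacr3, the neurokinin B receptor, rose by 1.39 on the log2 scale. The mineralocorticoid receptor gene Nr3c2 fell by 0.94 and the serotonin receptor gene Htr2c by 0.79. Npy5r, a neuropeptide Y receptor gene, was called on 2 UMIs in the dopamine sums, with a ratio of CPM of -2.59 on the log2 scale (-5.64 to -0.74). Without the DIO pool none of these 4 genes passed the test (Tacr3 1.78, Nr3c2 -0.89, Htr2c -0.60), and Tacr3 and Npy5r also failed it without either other pool. Prlr (0.49), Esr1 (-0.18), Ghr (-0.17) and Lepr (0.58) did not pass the test, although without the floor-plate factor nuclei Prlr was called higher (0.98). The mTORC1 pathway, the target of rapamycin, had 32 genes tested with a median of -0.08. Of these only Sesn3, a nutrient-sensing inhibitor of the pathway, was called. It fell by 0.96 and did not pass without the DIO pool (-0.92) or the chow pool (-1.07). No gene was called among 14 of leptin signalling, 7 immediate-early genes or 26 of cholesterol and fatty acid synthesis.

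Rbfox1, a splicing regulator of neurons, had the lowest log2 fold change of the called genes with at least 50 UMIs in the dopamine sums. It was at 615 and 308 CPM in dopamine nuclei of DIO rapamycin and vehicle, 772 and 895 in OB, and 380 and 354 in chow, against 1822 and 1907, 4035 and 3914, and 1540 and 1429 CPM in other neurons of those samples. It was lower in all 6 samples (log2 fold change -2.26, SE 0.19, adjusted p = 4.25e-29). Gpc5 (-2.11), a glypican, Car10 (-1.73), Zfpm2 (-1.69), the receptor phosphatases Ptprk (-1.52) and Ptprm (-1.43), the glutamate receptor gene Grm7 (-1.48), Unc13c (-1.48), which primes synaptic vesicles, the zinc transporter gene Tmem163 (-1.47), Arpp21 (-1.46), Fstl4 (-1.42) and Slit2 (-1.42), an axon repellent, also fell. Unc13c was nevertheless above other neurons in OB vehicle and Fstl4 in chow rapamycin, and Fstl4 was not called without the DIO pool (-0.73). Without floor-plate factor nuclei, 102 of the 212 lower genes were still called and none turned sign. Dopamine nuclei were deeper than other neurons. Against other neurons matched on UMIs, 143 genes were higher and 125 lower.

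Among the dopamine nuclei, those with Slc6a3 were set against those without. Only the DIO samples had at least 5 nuclei on each side, with 7 Slc6a3-positive and 8 negative nuclei in DIO rapamycin and 14 and 13 in DIO vehicle, so the test rests on 1 pool. The median depth was 8168 UMIs in positive and 9500.5 in negative nuclei of DIO rapamycin, and 11838.5 and 5833 UMIs in DIO vehicle. Slc6a3 is a gene of the rule, so the sides also differ in how they met it. Negative nuclei had to carry Ddc or Slc18a2, and positive nuclei did not. Of 1601 genes, 28 were higher in Slc6a3-positive nuclei (1.75%) and 6 lower (0.375%) by edgeR's quasi-likelihood test. These calls describe the split and are not support for the label. Where all 6 samples were used, 25 of these 34 genes could be tested, and all 25 were called with the same sign. That fit holds the same DIO sums, so it is not independent of the first.

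The leading genes of the Slc6a3-positive side were Bnc2, Tll1 and Ntn1, as in the floor-plate factor nuclei. Bnc2 was at 413.5 CPM in positive and 0 in negative nuclei of DIO rapamycin, and at 422 and 0 CPM in DIO vehicle, which makes it at least 22.4-fold higher against a floor of 3 counts over the negative sums. Klhl1, an actin-binding protein of neurons, was at 827 and 76.3 CPM in DIO rapamycin and 1132 and 61.6 CPM in DIO vehicle (log2 fold change 3.98, adjusted p = 0.0284). Both pairs lay apart by more than the spread between the samples. Ntn1 rose by 4.48, Rreb1 by 3.61, Ntng1, a netrin-like adhesion protein, by 3.54, Cadps2, which primes vesicles with monoamines, by 3.38, and Erbb4, the neuregulin receptor, by 2.72 on the log2 scale. Tll1 (4.59), Col11a1 (4.0), Rgs6 (3.20), Cpne7 (3.05) and Mcc (2.77) rose as well.

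On the lower side, Rnf220 was at 17.2 CPM in positive and 661 CPM in negative nuclei of DIO rapamycin, and at 157 and 874 CPM in DIO vehicle (log2 fold change -2.79). Grm8, a presynaptic glutamate receptor, fell by 2.64, Thsd7b by 2.22, Zfp804b by 2.02 and Sorcs1, a sorting receptor, by 1.76 on the log2 scale. Meis2 was at 17.2 and 699 CPM in positive and negative nuclei of DIO rapamycin and 65 and 357 CPM in DIO vehicle, and did not pass the test (log2 fold change -3.00, adjusted p = 0.0562). Drd2 (1.02), Gad2 (-1.84), Ghr (2.34) and Sox6 (1.75) did not pass it either. Floor-plate factor nuclei were 15 of the 21 positive and 2 of the 21 negative nuclei. Without them 0 genes were called in either direction (6 higher and 20 lower at an unadjusted p under 0.05), in a fit of 756 genes that differs from the first in its sums too. It used DIO vehicle, DIO rapamycin, OB rapamycin and chow vehicle, with 3, 3, 1 and 1 positive nuclei. Without the deepest 5% of nuclei 30 were higher and 1 lower.

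**Figure D3:**
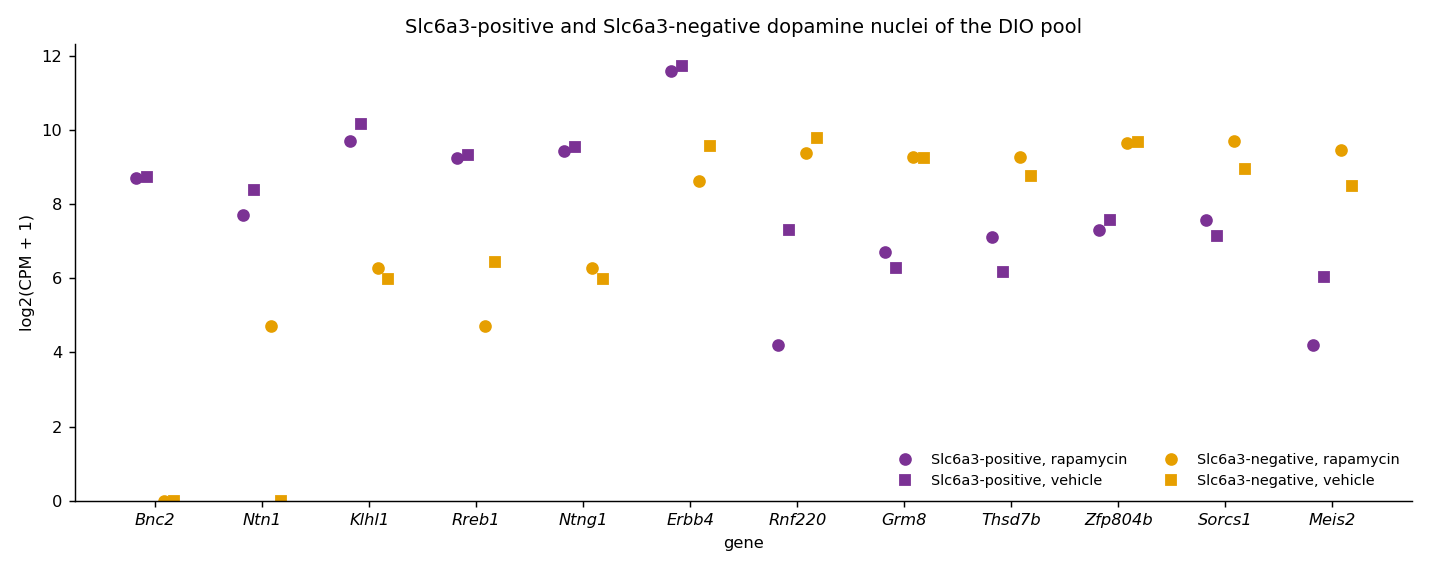
Levels of 12 genes on a log2(CPM + 1) axis in summed Slc6a3-positive (left) and Slc6a3-negative (right) dopamine nuclei of the DIO rapamycin and DIO vehicle samples, shown as separate points. Bnc2 was at 0 in both negative sums, and Rnf220, Grm8, Thsd7b, Zfp804b and Sorcs1 were lower in Slc6a3-positive nuclei in both samples.

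How many dopamine nuclei a sample held was compared next. They made up 0.395% of DIO nuclei (95% Clopper-Pearson interval 0.288 to 0.528), 0.0896% of OB nuclei (0.0447 to 0.16) and 0.295% of chow nuclei (0.202 to 0.416). The intervals cover counting error only. The OB interval lay below both others, and the OB pool had the lowest median depth, 2805 UMIs. With each nucleus thinned to 2000 UMIs, and shallower ones left out (422 in DIO, 3650 in OB and 312 in chow), the expected shares were 0.0511% in DIO, 0.0259% in OB and 0.0265% in chow. These rest on an expected 5.61, 2.24 and 2.79 nuclei, so no order of the pools at matched depth was read from them.

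By treatment, dopamine nuclei were 15 of 6008 nuclei (0.25%, 0.14 to 0.411) in DIO rapamycin and 27 of 4541 (0.595%, 0.392 to 0.864) in DIO vehicle. They were 9 of 5607 (0.161%, 0.0734 to 0.304) in OB rapamycin and 2 of 2323 (0.0861%, 0.0104 to 0.311) in OB vehicle. In chow they were 13 of 4934 (0.263%, 0.14 to 0.45) with rapamycin and 16 of 5186 (0.309%, 0.176 to 0.501) with vehicle. The share was lower with rapamycin in DIO and chow and higher in OB. In OB it was 0.0535% with rapamycin and 0.0861% with vehicle under the rule of at least 3 Th and 2 partner UMIs, which turns the direction there. With hashtags called by tag ratio, it was 8 of 5313 nuclei (0.151%) with rapamycin and 2 of 5332 (0.0375%) with vehicle. The mean difference over the 3 pools was -0.105 percentage points (two-sided exact permutation test, p = 0.75, where 0.25 is the smallest p that 3 pools allow). Thinned to 2000 UMIs, the shares were 0.0229% with rapamycin and 0.0956% with vehicle in DIO, 0.0369% with rapamycin and 0.0435% with vehicle in OB, and 0.0194% with rapamycin and 0.0362% with vehicle in chow. Without the floor-plate factor nuclei the DIO shares stood at 0.183% (0.0914 to 0.327) with rapamycin and 0.308% (0.169 to 0.517) with vehicle, with intervals that overlap.

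The groups of nuclei were not spread evenly over the samples. Floor-plate factor nuclei were 4 of 15 in DIO rapamycin and 13 of 27 in DIO vehicle, 1 of 9 and 1 of 2 in OB rapamycin and vehicle, and 6 of 13 and 3 of 16 in chow rapamycin and vehicle. En1 was seen in 9 nuclei of DIO vehicle and 0 of DIO rapamycin. Prlr nuclei were 4 of 9 in OB rapamycin and 0 of 2 in OB vehicle, and 0 of 13 and 4 of 16 in chow rapamycin and vehicle. How far the levels compared below depend on this make-up was not tested beyond giving them again without the floor-plate factor nuclei where the counts allow.

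**Figure D4:**
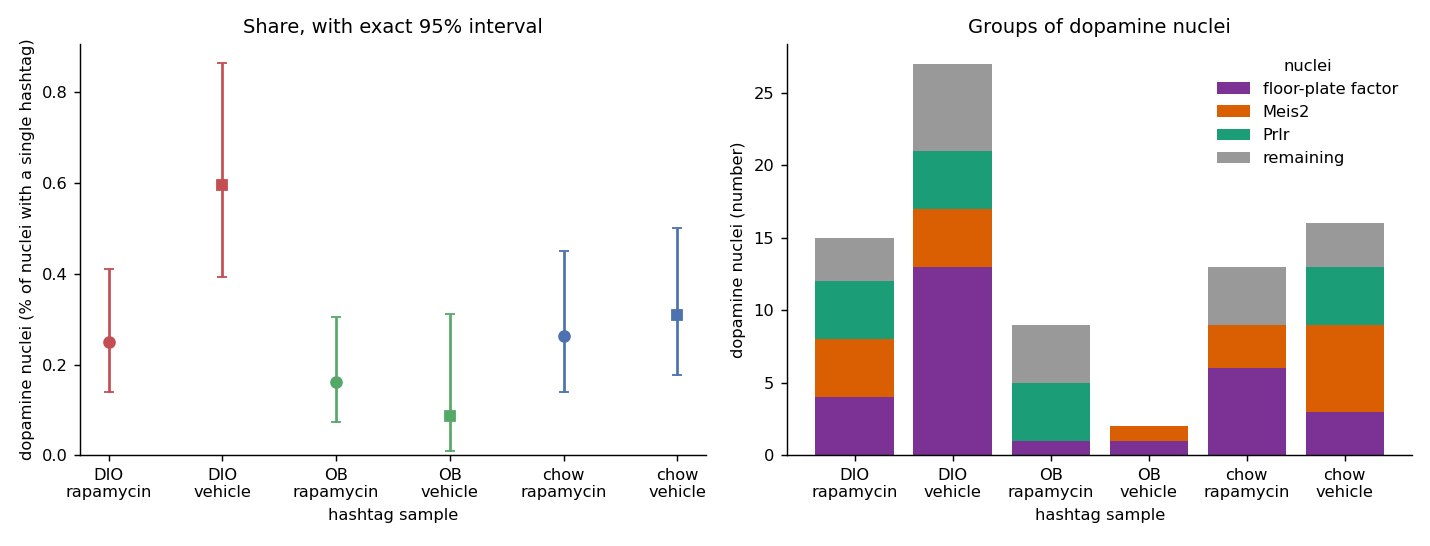
Share of dopamine nuclei among the nuclei of each hashtag sample (percent, with 95% Clopper-Pearson intervals) and the number of dopamine nuclei by group in each sample. DIO vehicle has the highest share, 0.595%, and 13 of its 27 nuclei carry floor-plate factors.

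Rapamycin was set against vehicle with the 3 pools as blocks. Of 2629 genes tested in the sums of dopamine nuclei, 0 were called higher (0%) and 0 lower (0%) by edgeR's quasi-likelihood test, and DESeq2 also called 0. At an unadjusted p under 0.05, edgeR had 27 higher and 21 lower genes, and DESeq2 6 and 1. The lists had no call. The 8 tested genes of the mTORC1 pathway had a median log2 fold change of 0.06 and the 9 hormone receptors one of 0.28, against 0.01 for all genes. Sox6 was at 124 CPM with rapamycin and 339 CPM with vehicle in DIO, 239 and 418 in OB, and 69 and 110 in chow. It was lower with rapamycin in all 3 pools but did not pass the test (log2 fold change -1.04, SE 0.35, adjusted p = 0.999). With no filter on low counts 3 genes were called higher with rapamycin, namely Npsr1, Htr7 and Cdh23. These 3 were named after their values were seen. Npsr1, the neuropeptide S receptor gene, had 12, 0 and 16 UMIs with rapamycin in DIO, OB and chow, against 0, 1 and 0 with vehicle, and the filter left these low genes out of the main test.

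Within single pools, values are given with intervals for counting error and no test. Th was at 256 CPM with rapamycin and 331 CPM with vehicle in DIO (log2 ratio -0.37, -0.98 to 0.21), 441 and 656 CPM in OB (-0.57, -1.66 to 0.61) and 242 and 339 CPM in chow (-0.49, -1.17 to 0.19). Since the rule sets a minimum for Th in every nucleus, nothing is read from these values. Slc6a3, also a rule gene, went opposite ways in DIO and chow. It had 25 UMIs with rapamycin and 67 with vehicle in DIO (183 and 252 CPM, log2 ratio -0.46, -1.19 to 0.22), and 33 and 3 UMIs in chow (228 and 23.6 CPM, 3.27, 1.60 to 5.62), of which 18 with rapamycin were in 1 nucleus. The difference between the pools was not tested.

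In DIO, 2.17% of 1473 genes were at least 2-fold higher with rapamycin and 2.24% at least 2-fold lower. Drd2 was at 117 CPM with rapamycin and 222 CPM with vehicle (log2 ratio -0.92, -1.82 to -0.11), and Ghr at 146 and 297 CPM (-1.02, -1.81 to -0.30). Without floor-plate factor nuclei, Drd2 stood at 83.5 and 87.0 CPM (-0.06, -1.60 to 1.43) and Ghr at 94.0 and 60.9 CPM (0.63, -0.97 to 2.28), and both intervals then included 0. Sorcs3, a neuronal sorting receptor, was at 402 and 48.9 CPM (3.04, 2.15 to 4.04), and at 459 and 87.0 CPM without those nuclei (2.40, 1.39 to 3.56). Cpne4, a calcium-dependent membrane-binding protein, was at 271 and 715 CPM (-1.40, -1.95 to -0.89), and at 177 and 722 CPM without them (-2.03, -2.87 to -1.26). Both intervals excluded 0 with and without those nuclei. Of 684 genes measured without them, 2.78% were at least 2-fold higher and 3.8% at least 2-fold lower.

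In chow, 4.44% of 901 genes were at least 2-fold higher with rapamycin and 1.89% at least 2-fold lower. Prlr had 4 UMIs with rapamycin and 22 with vehicle (27.6 and 173 CPM, log2 ratio -2.65, -4.65 to -1.09), beside 0 and 4 Prlr nuclei in these samples. In DIO the same gene was at 241 CPM with rapamycin and 113 CPM with vehicle (1.10, 0.34 to 1.86), and in OB it had 15 and 0 UMIs. Meis2 was at 221 CPM with rapamycin and 496 CPM with vehicle in chow (-1.17, -1.83 to -0.53), but at 410 and 154 CPM in DIO (1.41, 0.80 to 2.03). Gad2 was at 110 and 236 CPM in chow (-1.10, -2.07 to -0.18), and at 233 and 296 CPM without floor-plate factor nuclei (-0.35, -1.35 to 0.59), where 3.17% of 473 genes were at least 2-fold higher and 2.33% at least 2-fold lower. Glra3, a glycine receptor subunit, was at 311 and 47.2 CPM (2.72, 1.48 to 4.24), and Rorb, a nuclear receptor, at 186 and 638 CPM (-1.78, -2.46 to -1.13). Prlr and Meis2 thus went opposite ways in chow and DIO, a difference that was not tested.

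In OB, with 9 rapamycin and 2 vehicle nuclei, 15.3% of 157 genes were at least 2-fold higher with rapamycin and 10.2% at least 2-fold lower. Ddc was at 165 CPM with rapamycin and 775 CPM with vehicle (log2 ratio -2.23, -3.63 to -0.89). Since Ddc is a rule gene, nothing is read from its values. Grik1, a kainate receptor subunit, had 55 and 1 UMIs (4.08, 1.55 to 9.41) and Brinp3 16 and 40 UMIs (-3.02, -3.96 to -2.15). A pair of vehicle nuclei stands behind these values, of which 1 carried floor-plate factors and 1 was a Meis2 nucleus.

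**Figure D5:**
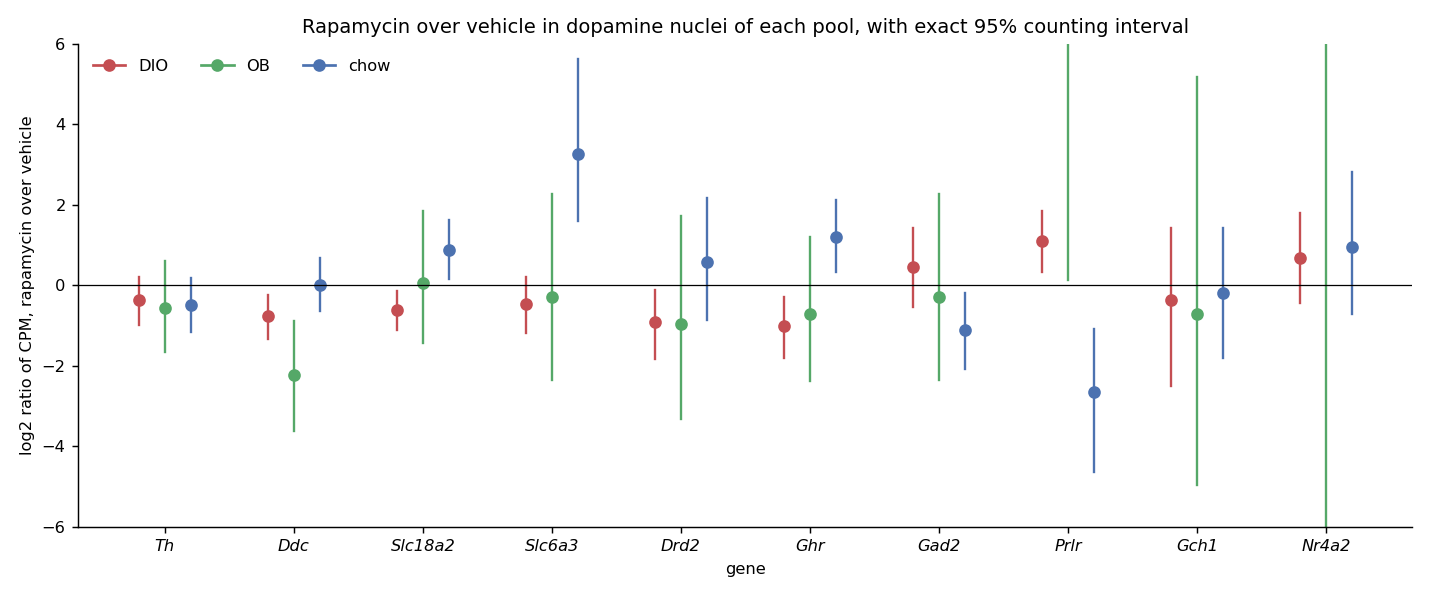
Log2 ratio of CPM with rapamycin to CPM with vehicle for 10 genes in the DIO, OB and chow pools, with 95% intervals for counting error clipped at the axis limits. Slc6a3 and Prlr lie on opposite sides in DIO and chow, and Prlr and Nr4a2 have no point in OB, where vehicle had 0 UMIs of them.

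Among vehicle samples, DIO was set against chow, with 27 and 16 nuclei and no test. The samples came from separate pools, so diet-induced obesity cannot be told apart from other differences between the pools. Th, held to a minimum by the rule, stood at 331 CPM in DIO and 339 CPM in chow (log2 ratio -0.03, -0.57 to 0.53). Slc6a3 was at 252 and 23.6 CPM (3.42, 1.81 to 5.73), Slc18a2 at 527 and 197 CPM (1.42, 0.80 to 2.10), Drd2 at 222 and 55.1 CPM (2.01, 0.88 to 3.39) and Ghr at 297 and 126 CPM (1.24, 0.45 to 2.11). Of 1450 genes, 6.97% were at least 2-fold higher in DIO and 4.34% at least 2-fold lower. Lix1 (3.66), Rreb1 (3.09) and Ntn1 (2.86), which mark the floor-plate factor nuclei, were among the highest, and Meis2 (-1.69), Chrm3 (-2.56) and Rorb (-2.32) among the lowest.

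The make-up of the samples moved with these ratios, since 13 of 27 DIO nuclei and 3 of 16 chow nuclei carried floor-plate factors. Without them, Drd2 was at 87.0 CPM in DIO and 49.4 CPM in chow (0.82, -0.87 to 2.72) and Ghr at 60.9 and 88.9 CPM (-0.55, -2.21 to 1.05), each with an interval that includes 0. The rule genes Slc6a3, with 5 and 1 UMIs, and Slc18a2, at 392 and 188 CPM, are given as descriptions. Rorb stayed lower, at 200 and 652 CPM (-1.70, -2.46 to -1.0). Cpne4, at 722 and 148 CPM (2.29, 1.48 to 3.19), and Htr2c, at 174 and 524 CPM (-1.59, -2.41 to -0.82), also differed by more than counting error. With these nuclei left out, 5.45% of 697 genes were at least 2-fold higher and 1.43% at least 2-fold lower.

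The OB vehicle sample had 2 dopamine nuclei, so its values are those of 2 nuclei. It also came from a separate pool, counted with Cell Ranger 7.0.1 where the others had 6.0.0. Genotype thus cannot be told apart from pool or software version. Against chow vehicle, 10.5% of 362 genes were at least 2-fold higher in OB and 7.73% at least 2-fold lower, and against DIO vehicle 10.7% and 16.4% of 920. Th was at 656 CPM in OB vehicle and 339 CPM in chow vehicle (log2 ratio 0.95, -0.15 to 1.93), and Ddc at 775 and 307 CPM (1.34, 0.31 to 2.27). Both are rule genes, so nothing is read from their values. Htr2c had 0 UMIs in OB vehicle and 57 in chow vehicle, at least 2.51-fold lower in OB vehicle against a floor of 3 counts in that sum.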

How the data were processed

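Per the file headers and labels, the authors made counts with Cell Ranger 6.0.0 (7.0.1 for OB) on mm10, and what they deposited are unnormalized UMI counts of genes and hashtag counts for each nucleus. Chow and DIO list 27998 genes and OB 31053, of which 27514 shared by ID were used. Members and gene lists were chosen with earlier results of these data known. A nucleus needed 500 UMIs, 300 genes and a mitochondrial share below 5%, and 1 OB barcode failed. Hashtags were called with HTODemux (Seurat 5.3.0, quantile 0.99); those called doublets (450 in DIO, 622 in OB, 542 in chow) or with no call (406, 3731 and 191) entered no sum. No other doublet caller was run.

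Other neurons had at least 5 UMIs of neuron markers and more of these than of all other cell type markers. Counts were summed per hashtag sample and tested with edgeR 4.0.16 (TMM, filterByExpr, quasi-likelihood, Benjamini-Hochberg), with the hashtag sample or pool as a block; DESeq2 1.42.0 was an alternative. Tests were checked on simulated data. CPM is UMIs scaled to 1000000 in a sum. Intervals within pools are exact for counting error at 95%. The text names the 12 genes with the largest change in each direction among called genes with at least 50 UMIs, the 10 highest and lowest ratios, and list members. Gene models with numbered names were counted and not named. Some genes are not reported here.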

Additional observations from a re-analysis of the deposited data

How the results depend on the processing

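In the comparison of dopamine nuclei with other neurons, 183 genes were higher and 212 lower. The numbers were 106 and 65 with DESeq2, 92 higher with at least 3 Th UMIs and 2 partner UMIs, 110 higher without the deepest 5% of nuclei, 24 and 18 against neurons with Th and no partner, 71 higher without floor-plate factor nuclei (added after seeing the data), and 125 lower against neurons matched on UMIs. Leaving out each pool, or the OB vehicle sample, gave 45 to 217 higher and 52 to 249 lower. Without the floor-plate factor nuclei Bnc2 turned to -1.08, Tll1 to -0.70, Ntn1 to -1.43, Lix1 to -0.51, Rreb1 to -0.61 and Foxp2 to -0.34. Against neurons with Th and no partner, Car10 turned to 0.60, Foxp2 to -1.02 and Htr2c to 0.27. Against GABAergic neurons Tmem163 turned to 0.07 and Gad2 to -1.12, which is fixed by choosing those neurons on GABA genes. With the stricter rule, Foxp2 turned to -0.37 and Prlr to -0.25. For Slc6a3-positive against negative nuclei (28 higher, 6 lower), the counts were 77 and 29 without a filter, 66 and 38 over all samples, 0 and 0 without floor-plate factor nuclei (8 sums from 4 samples and 756 genes in place of 1601; Gad2 turned to 0.37), and 1 lower without the deepest 5%. The matched neurons held none of OB vehicle, which also dropped out without the deepest 5%. Single pools and the stricter rule could not be fitted there. For rapamycin, 3 genes were called higher without a filter, and leaving out each pool gave 0 to 0. The rapamycin fit pairs the sums of a pool through the pool block; with no replicate block 0 genes were called (26 higher and 17 lower at an unadjusted p under 0.05). Shares were 0.149%, 0.0407% and 0.0921% in DIO, OB and chow with the stricter rule, 1%, 0.342% and 0.977% with at least 1 Th UMI, 0.0511%, 0.0259% and 0.0265% thinned, and 0.246% in DIO without floor-plate factor nuclei. The mean rapamycin minus vehicle difference stayed between -0.132 and -0.032 percentage points in every setting run. The cause of these shifts was not tested, except that a setting with fewer nuclei has fewer UMIs. With 88 nuclei, and 2 in OB vehicle, depth limits every comparison between samples.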
